A study of Zea mays with 48 samples.

Results

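The crown of a maize seedling is the junction of shoot and root, where stem nodes, the bases of the leaves and the origins of shoot-borne roots lie close together. It holds the shoot meristem of a young grass plant, so its state after cold bears on regrowth. In plants in general, chilling slows membrane and enzyme processes and sets off a broad change of transcripts, with induced and repressed genes in every organ. A difference of differences, called an interaction here, asks whether one tissue changed more than another, which the counts of changed genes in each tissue do not show.

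The comparison covered 12 of the 48 libraries of a series on the inbred line B73, sampled at the stage of 3 leaves. They came from the top crown and the bottom crown, which the labels define no further, with 3 libraries in each of 4 groups. In the groups called 4S4R, shoot and root were chilled at 4 °C for 24 h. In the groups called 26S26R, the controls, shoot and root stayed at 26 °C. Both had grown at 26 °C before, and the labels name no transgene, mutation or other agent. The interaction was the log2 fold change of 4S4R over 26S26R in the top crown minus that in the bottom crown. A positive value therefore means a larger rise or a smaller fall in the top crown. The repeats are called biological in the series' text without further detail. A p-value here therefore rests on the spread of these libraries, which may be technical. With bulk tissue, fewer cells of a type and less RNA per cell cannot be told apart.

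Total counts in the 12 libraries ran from 4970683 to 8633854. The first principal component held 59.6% of the variance and separated the crown parts, and the second held 25.1% and separated chilled from control libraries. Within a group, log levels of 2 libraries correlated at 0.961 or higher across genes. The fixed markers of leaf, root, meristem and wood could not be matched to the nuclear identifiers, so the tissue labels were set against genes enriched 8 times in control leaf over control root or the reverse. The 660 tested root-enriched genes had a mean level of 2.84 to 3.05 (log2(CPM + 0.5)) in the 4S4R top crown and 2.87 to 2.95 in the 26S26R top crown. They stood at 4.21 to 4.38 in the 4S4R bottom crown and 4.04 to 4.15 in the 26S26R bottom crown. CPM is a count scaled to the TMM-adjusted library total. The 1398 tested leaf-enriched genes lay at 3.11 to 3.34 in the top crown and 3.27 to 3.56 in the bottom crown, so they did not mark the top part.

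Of 18846 features tested, 181 passed an adjusted p of 0.05 for the interaction (edgeR's quasi-likelihood test with Benjamini-Hochberg adjustment), which is 0.960% of those tested. The interaction was positive for 67 (0.356%) and negative for 114 (0.605%). At an unadjusted p of 0.05 there were 2631, and the median standard error (SE) of an interaction was 0.323 on the log2 scale. Values ran from 0.76 to 5.49 among the positive genes and from -5.77 to -0.866 among the negative ones. The last gene inside the threshold had an adjusted p of 0.0492 and the first outside it 0.0505.

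The number and its split depended on the libraries and the test. Leaving out 1 library gave 107 genes without 26S26R top replicate 1, 83, 119 and 79 without 26S26R bottom replicates 1, 2 and 3, 109 and 79 without 4S4R top replicates 1 and 3, and 119 without 4S4R bottom replicate 2. The other 5 left-out libraries gave 127 to 249. DESeq2's Wald test gave 349 genes, 170 positive and 179 negative, so the larger share of negative genes was not seen there. Without 26S26R top replicate 2 the split was 74 positive to 64 negative, and without 4S4R top replicate 3 it was 43 to 36. All 181 genes kept their sign in each of 19 settings, and 50 were called in every one of them, 20 positive and 30 negative. The settings include the fit that chose the genes, and the others reuse all or all but 1 of its libraries. Kept signs therefore follow largely from that choice.

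Chilling changed many genes in each part, and for few of them was the response called different between the parts. In the top crown 6592 genes changed (35.0%), 3080 risen and 3512 fallen, and in the bottom crown 7008 changed (37.2%), 3668 risen and 3340 fallen. Across all 18846 genes, the log2 fold changes of the parts, which come from separate libraries, correlated with Pearson's r of 0.776 and Spearman's rho of 0.715, with genes as points that are not independent. Of 4207 genes called in both parts, 2058 rose in both, 2111 fell in both and 38 moved in opposite directions. A further 5186 genes were called in 1 part alone, 2385 in the top crown and 2801 in the bottom crown, but the interaction was called for 107 of these. With library size alone as the scaling, the median change of all genes was -0.32 in the top crown and -0.23 in the bottom crown, against -0.06 and 0.02 with TMM. The split of calls then became 1555 risen to 5676 fallen in the top crown and 1933 to 5200 in the bottom crown. With DESeq2 size factors in edgeR it was 3574 risen to 3166 fallen in the top crown and 3588 to 3380 in the bottom crown. Which direction held more calls thus depended on the scaling in both parts. The median of the interaction was -0.07 with TMM and with library size alone, and -0.003 with DESeq2 size factors.

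**Figure D1:**
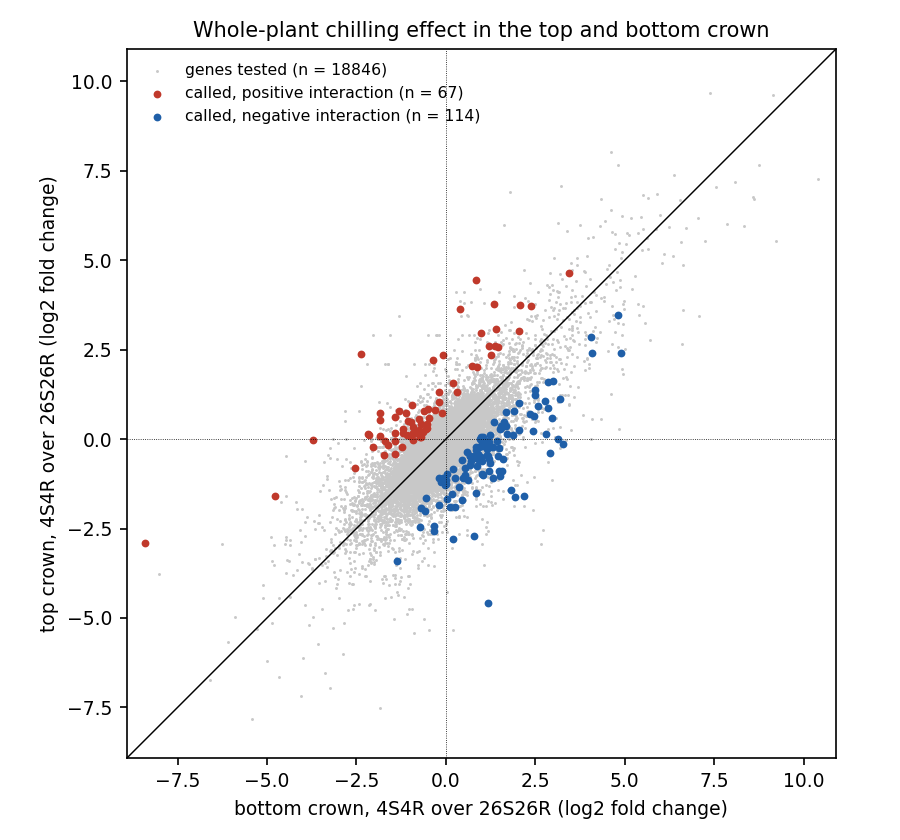
Log2 fold change of 4S4R over 26S26R in the top crown (vertical axis) against the bottom crown (horizontal axis) for 18846 genes (grey), with the 67 genes of positive (red) and 114 of negative (blue) interaction and the line of equal change. Most genes follow the line, and the coloured genes leave it on both sides, many of them near 0 on 1 axis.

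Among called genes that reached 10 CPM in a group and did not overlap between conditions, the 2 with the largest rise in each part also rose in the other part. Zm00001d044426 averaged 62.6 ± 23.0 CPM in the 4S4R top crown and 0.0571 ± 0.0989 CPM in the 26S26R top crown (SD, n = 3 each), from 1 count in the controls. Its ratio from pooled counts was 1130, with an exact 95% counting interval of 203 to 44800. It averaged 64.5 ± 11.4 CPM in the 4S4R bottom crown and 0.374 ± 0.271 CPM in the 26S26R bottom crown, and the interaction was not called (2.29, SE 1.31, adjusted p = 0.456). Zm00001d002545 stood at 16.7 ± 9.74 CPM in the 4S4R top crown and had no counts in the 26S26R top crown, so it was at least 33.6-fold higher against a floor of 3 counts per library.

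In the bottom crown, Zm00001d041960 averaged 28.9 ± 4.72 CPM at 4S4R and had no counts at 26S26R, at least 61.8-fold higher. Zm00001d043536 averaged 43.5 ± 0.6 CPM in the 4S4R bottom crown and 0.0562 ± 0.0973 CPM in the 26S26R bottom crown, from 1 count, with a ratio of 839 (counting interval 150 to 33200). In the top crown the same gene averaged 19.1 ± 2.16 CPM at 4S4R and 0.389 ± 0.266 CPM at 26S26R. Its interaction of -3.67 (SE 0.925) missed the threshold (adjusted p = 0.0662). These intervals and floors cover counting error only.

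Under the same rule, the 2 genes with the largest fall in each part fell in the other part too. Zm00001d038251 averaged 1.24 ± 0.223 CPM in the 4S4R top crown and 39.4 ± 12.1 CPM in the 26S26R top crown, and 0.976 ± 0.435 CPM in the 4S4R bottom crown and 12.7 ± 2.0 CPM in the 26S26R bottom crown. Zm00001d016723 was at 0.729 ± 0.513 CPM in the 4S4R top crown and 17.0 ± 10.1 CPM in the 26S26R top crown. Zm00001d003451 averaged 0.59 ± 0.358 CPM in the 4S4R bottom crown and 24.7 ± 5.28 CPM in the 26S26R bottom crown. Zm00001d032115 had 3 counts in the 3 libraries of the 4S4R bottom crown and averaged 12.2 ± 1.7 CPM in the 26S26R bottom crown, which was 77.8-fold higher (counting interval 26.3 to 380). For none of these 4 was the interaction called (adjusted p from 0.312 to 0.971, edgeR). In the 4S4R top crown Zm00001d032115 had no counts and Zm00001d003451 had 2. The sizes of falls that reach so few counts can hardly be compared between the parts.

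The 181 genes were sorted by what each part did. Of these, 105 were called in the top crown and 150 in the bottom crown, and both parts were called for 74. Top crown alone accounted for 31 and bottom crown alone for 76. The size of the effect was larger in the top crown for 61 genes and in the bottom crown for 120. Of all 2058 genes risen in both parts, 50.9% rose more in the bottom crown. Of all 2111 fallen in both, 45% fell more there. The share for rises was 45.6% with DESeq2 size factors and 52.1% with library size alone. Because the interaction is built from the effects in the parts, the counts of the 181 describe its make-up and were not tested.

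Among the 114 negative genes, the largest class, 45 genes, rose in the bottom crown and was not called in the top crown. Its median change was -0.14 in the top crown and 1.22 in the bottom crown. Another 24 genes fell in the top crown, with a median of -0.89, and rose in the bottom crown, with a median of 0.90. In 21 the fall in the top crown (median -1.29) was not matched in the bottom crown (median 0.04), which was not called. In 19 both parts rose, by a median of 1.06 in the top crown and 2.57 in the bottom crown.

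Among the 67 positive genes, the largest class, 31 genes, fell in the bottom crown (median -1.20) and was not called in the top crown (median 0.17). In 14 genes both parts rose, by a median of 3 in the top crown and 1.36 in the bottom crown. Another 10 rose in the top crown (median 1.33) and were not called in the bottom crown (median -0.14). In 8 the top crown rose (median 0.76) and the bottom crown fell (median -0.72). Across both signs, 9 genes fell in both parts to different degrees. The 32 genes with opposite calls were 0.170% of the features tested.

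**Figure D2:**
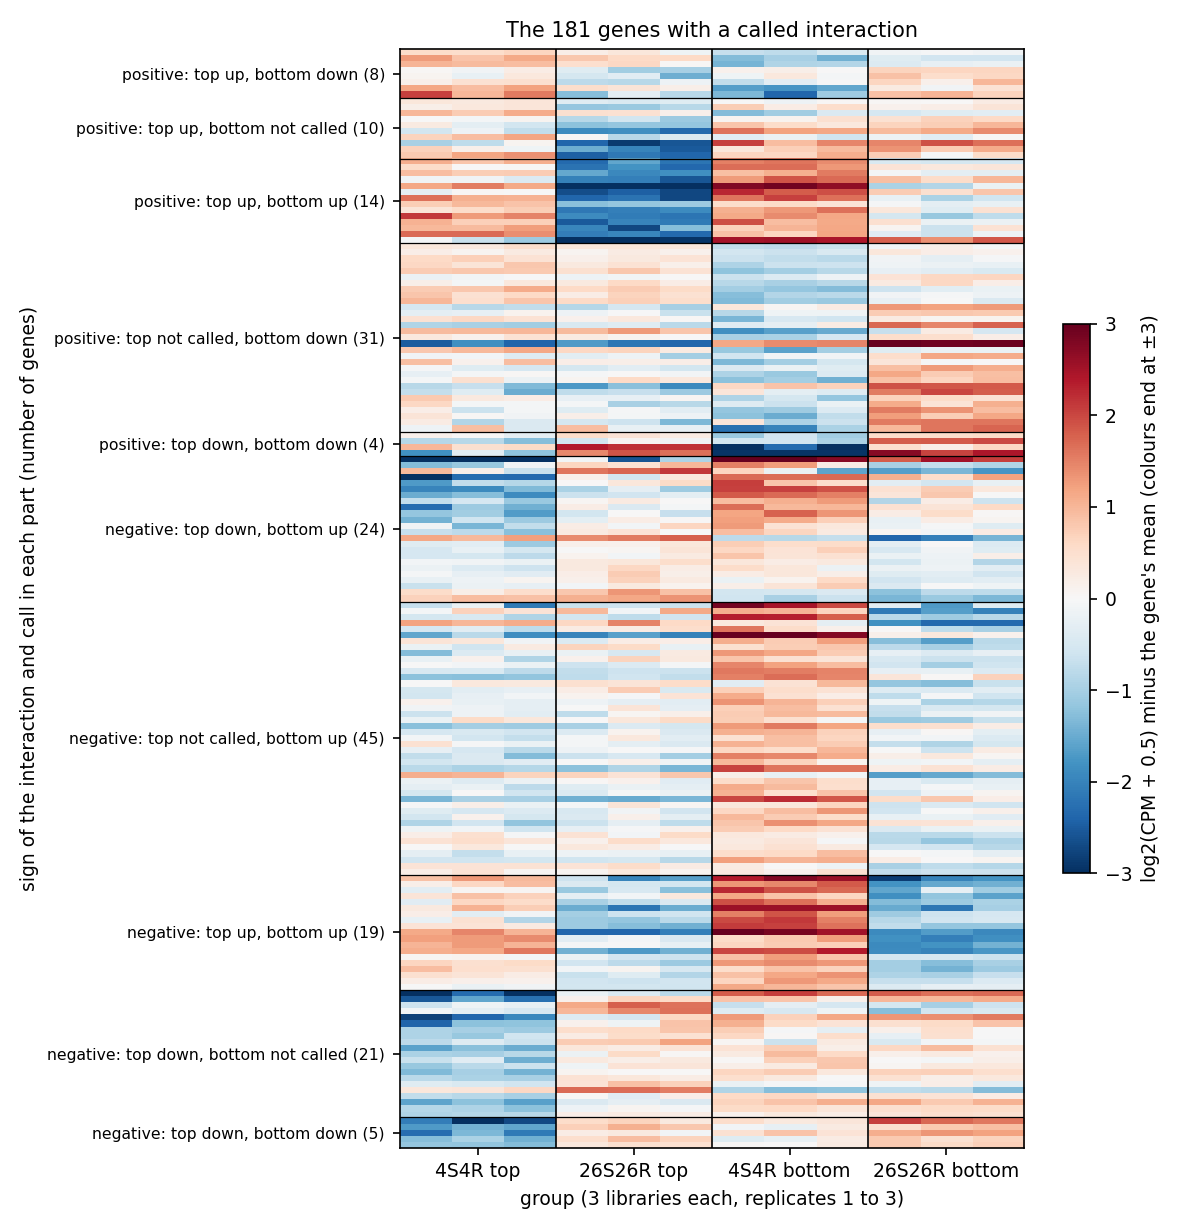
Level of the 181 genes, as log2(CPM + 0.5) minus the mean of each gene (colour, ending at ±3), in the 12 libraries (columns, 3 per group) and grouped by the sign of the interaction and the call in each part (rows). The 3 libraries of a group look alike in most rows, and the block of 45 negative genes is high in the 4S4R bottom crown while its other groups lie closer together.

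Zm00001d004744 had the largest positive interaction among genes that reached 10 CPM in a group and did not overlap between conditions in at least 1 part. In the top crown it had 34.7, 16.6 and 24.6 CPM at 4S4R and 3.28, 6.64 and 4.62 CPM at 26S26R. In the bottom crown it had 3.15, 1.44 and 3.88 CPM at 4S4R and 15, 16.4 and 13 CPM at 26S26R. Chilled libraries were thus all above the controls in the top crown and all below them in the bottom crown. The log2 fold changes were 2.38 (SE 0.305, adjusted p = 1.4e-05) and -2.37 (SE 0.33, adjusted p = 2.6e-05), and the interaction was 4.75 (SE 0.449, adjusted p = 2.76e-05, edgeR). It stayed called in every one of the 19 settings.

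In the bottom crown, the same gene at 4S4R stood apart from the conditions that chilled 1 end of the plant. With the shoot alone at 4 °C (4S26R) it averaged 15.8 ± 4.83 CPM in the top crown and 26.1 ± 2.93 CPM in the bottom crown. With the root alone at 0 °C (26S0R) it averaged 15.9 ± 4.3 CPM in the top crown and 28.2 ± 3.08 CPM in the bottom crown. On the same scale of 24 crown libraries, the 4S4R top crown had 24.9 ± 8.86 CPM and the 26S26R top crown 4.79 ± 1.7 CPM. The mean of the top crown was thus above its control in every chilled condition. The 4S4R bottom crown had 2.77 ± 1.23 CPM and the 26S26R bottom crown 14.9 ± 1.76 CPM (n = 3 each). The low level in the bottom crown was thus seen with the whole plant chilled and in neither local treatment.

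Zm00001d002019, second by size under the same rule, was higher in the bottom crown than in the top crown. It had 2.41, 1.51 and 1.07 CPM in the 4S4R top crown, and 0, 0 and 0.171 CPM, a single count, in the 26S26R top crown. The bottom crown had 14.9, 15.5 and 14.4 CPM at 4S4R and 8.94, 6.56 and 9.43 CPM at 26S26R. Chilled libraries were above the controls in both parts, with a ratio of pooled counts of 29.9 in the top crown (counting interval 4.88 to 1230) and 1.81 in the bottom crown (1.48 to 2.21). Scaled over the leaf and root libraries, the gene averaged 13.4 ± 2.92 CPM in 4S4R root and 10.9 ± 1.75 CPM in 26S26R root, and 1.71 ± 1.4 CPM in 4S4R leaf and 1.8 ± 0.227 CPM in 26S26R leaf (n = 3 each).

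Its interaction of 3.61 (SE 0.825, adjusted p = 0.0413, edgeR) was lost without any 1 of 8 libraries, with adjusted p from 0.0507 to 0.132. These were 26S26R top replicates 1 and 2, 26S26R bottom replicates 1 and 3, 4S4R top replicate 1 and all 3 of the 4S4R bottom crown. Without 26S26R top replicate 3, which holds the single count, the fitted value was 5.47. The call was also lost with 24 libraries in the fit (adjusted p = 0.0622) and with DESeq2 (0.0645).

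A gene singled out after its values were seen, Zm00001d046510, had the smallest adjusted p of the positive genes. In the top crown it had 111, 94.2 and 113 CPM at 4S4R and 70.4, 63.0 and 56.5 CPM at 26S26R. In the bottom crown it had 15.5, 14.4 and 16.5 CPM at 4S4R and 57.7, 44.7 and 64.9 CPM at 26S26R. The parts were close to each other in control plants and far apart after chilling, with no overlap between conditions in either part. It rose by 0.74 in the top crown (SE 0.146, adjusted p = 0.000736) and fell by 1.85 in the bottom crown (SE 0.161, adjusted p = 6.02e-08), an interaction of 2.59 (SE 0.217, adjusted p = 4.81e-06, edgeR). In root, whose libraries are separate, it changed by -1.61 (SE 0.383, adjusted p = 0.015), and in leaf by -0.54 (SE 0.213, adjusted p = 0.0725).

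Zm00001d041611 had the most negative interaction. It had 0, 0.189 and 0 CPM in the 4S4R top crown, a single count, and 3.75, 0.511 and 2.05 CPM in the 26S26R top crown. Bottom crown libraries had 52.6, 41.9 and 27.7 CPM at 4S4R and 14.2, 23.0 and 17.1 CPM at 26S26R. The chilled libraries lay below the controls in the top crown and above them in the bottom crown. The level in the 26S26R top crown was 31.3-fold that of the 4S4R top crown from pooled counts (counting interval 5.3 to 1270).

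The fitted size of the interaction, -5.77 (SE 1.13, adjusted p = 0.0273, edgeR), depended on that count. It was -7.88 without 4S4R top replicate 2, which holds the count. The call was lost without any 1 of 8 libraries (adjusted p from 0.0519 to 0.114): 26S26R top replicates 1 and 3, 26S26R bottom replicates 1 and 3, all 3 of the 4S4R top crown and 4S4R bottom replicate 2. With 24 libraries in the fit the adjusted p was 0.345, and with no filter on low counts 0.0565.

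Zm00001d004730 was more secure. It had 0.658, 1.32 and 1.28 CPM in the 4S4R top crown and 7.98, 4.77 and 9.08 CPM in the 26S26R top crown. In the bottom crown it had 24.0, 23.5 and 24.0 CPM at 4S4R and 14.8, 10.1 and 16.6 CPM at 26S26R. No chilled library overlapped a control in either part. It fell in the top crown (-2.70, SE 0.357, adjusted p = 1.38e-05) and rose in the bottom crown (0.78, SE 0.217, adjusted p = 0.0083), an interaction of -3.49 (SE 0.42, adjusted p = 0.000307, edgeR). In root it averaged 50.3 ± 35.0 CPM at 4S4R and 79.6 ± 34.5 CPM at 26S26R, a difference that was not called (-0.67, SE 0.468, adjusted p = 0.343).

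Zm00001d047938, also singled out after its values were seen, had the smallest adjusted p of the negative genes. It had 11.8, 12.5 and 8.99 CPM in the 4S4R top crown and 11.6, 9.88 and 11.6 CPM in the 26S26R top crown. The bottom crown had 88.7, 86.9 and 60.3 CPM at 4S4R and 9.44, 7.9 and 9.28 CPM at 26S26R. The groups overlapped in the top crown and were far apart in the bottom crown. Its change was 0.01 in the top crown (SE 0.201, adjusted p = 0.975) and 3.15 in the bottom crown (SE 0.185, adjusted p = 3.23e-10), and the interaction was -3.14 (SE 0.271, adjusted p = 4.81e-06, edgeR). The gene rose in leaf (3.92, SE 0.31, adjusted p = 1.01e-06) and in root (1.96, SE 0.426, adjusted p = 0.00991), so the top crown was the 1 tissue of 4 in which its rise was not called.

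**Figure D3:**
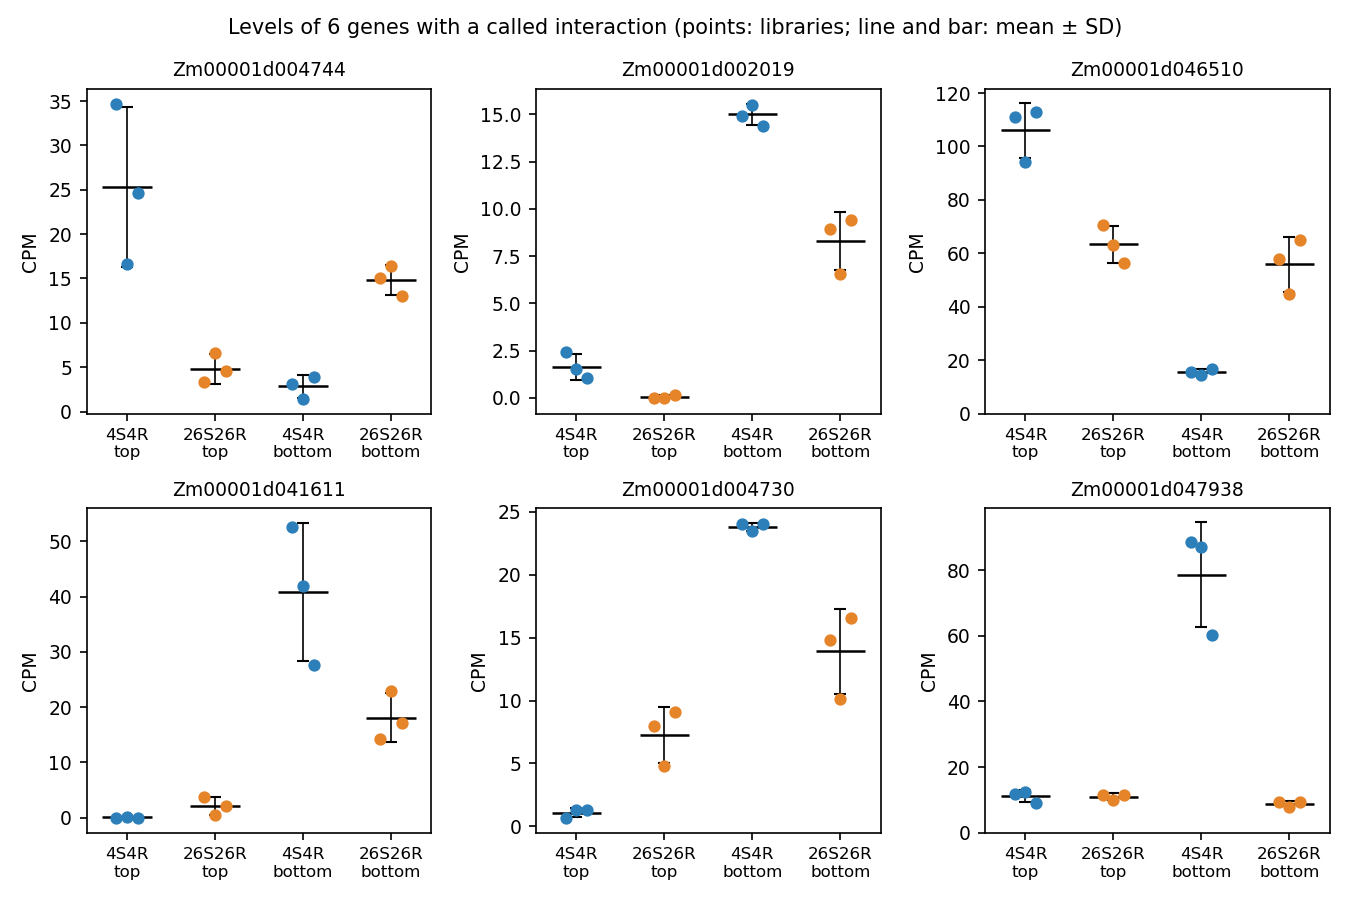
Levels in CPM of 6 genes with a called interaction in the 4 groups of 3 libraries, with 4S4R in blue and 26S26R in orange (points are libraries, line and bar are mean ± SD). Zm00001d004744 and Zm00001d046510 change in opposite directions in the parts, Zm00001d047938 is high in the 4S4R bottom crown alone, and Zm00001d002019 and Zm00001d041611 are near 0 in 1 group of the top crown.

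The interaction can also be read as a change in how the parts differ. At 4S4R 11054 genes differed between top and bottom crown (58.7%), and at 26S26R 9927 (52.7%). Of the 114 negative genes, 54 were not called different between the parts in control plants and were called higher in the bottom crown after chilling. Another 15 were higher in the top crown in controls and higher in the bottom crown after chilling, and 15 lost a call of being higher in the top crown. Of the 67 positive genes, 15 lost a call of being higher in the bottom crown, 11 gained one of being higher in the top crown and 10 passed from higher in the bottom to higher in the top. The other 61 kept the direction of their part difference and changed its size.

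By the naming rule, 2 genes of each sign with the largest part difference were taken in each condition among called genes that reached 10 CPM in a group and did not overlap between the parts. None of these was among the 181. Zm00001d051251, Zm00001d028816 and Zm00001d012088 had 2 or fewer counts in each top crown group, so an interaction could hardly be called for them. Their missing calls do not show that the parts responded alike. At 4S4R, Zm00001d001894 averaged 26.9 ± 4.5 CPM in the top crown and 0.65 ± 0.239 CPM in the bottom crown, and Zm00001d028182 averaged 19.5 ± 1.44 CPM in the top crown and 0.55 ± 0.555 CPM in the bottom crown. Zm00001d028816 had 1 count in the 4S4R top crown and 227, 7.04 and 33.5 CPM in the 4S4R bottom crown, and 1 count in the 26S26R top crown and 59.5, 49.2 and 70.0 CPM in the 26S26R bottom crown. Zm00001d051251 had no counts in the top crown and 98.4, 20.0 and 2.77 CPM in the 4S4R bottom crown, at least 64.9-fold higher there.

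That call (adjusted p = 0.0457, edgeR) was lost without any replicate of the 26S26R bottom or 4S4R top crown or without 4S4R bottom replicate 2 (adjusted p from 0.0752 to 0.087), and with no filter (0.0637). At 26S26R, Zm00001d008359 averaged 11.4 ± 5.06 CPM in the top crown and 0.218 ± 0.26 CPM in the bottom crown. Zm00001d034204 averaged 13.3 ± 2.09 CPM in the top crown and 0.255 ± 0.0751 CPM in the bottom crown. Zm00001d012088 had 1 count in the 26S26R top crown and averaged 42.9 ± 4.82 CPM in the 26S26R bottom crown.

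The libraries of plants chilled at 1 end played no part in choosing the genes. In a fit of all 24 crown libraries, the positive genes had a median difference of top over bottom crown of 0.43 at 4S4R, -0.79 at 4S26R, -0.47 at 26S0R and -1.29 at 26S26R. The negative genes had medians of -1.22 at 4S4R, -0.49 at 4S26R, -0.94 at 26S0R and 0.21 at 26S26R. The values at 4S4R and 26S26R chose the genes, so their distance is set by that choice. The difference at 4S26R lay between those at 4S4R and 26S26R for 146 of the 181 genes (80.7%), and that at 26S0R for 129 (71.3%). Whether a value in between exceeds what the choice of extremes gives was not tested.

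Individual genes did not all follow these medians. For Zm00001d047938 the difference was -2.82 (SE 0.368) at 4S4R, -1.13 (SE 0.415) at 4S26R, -3.02 (SE 0.373) at 26S0R and 0.28 (SE 0.393) at 26S26R, so the values after whole-plant and root-only chilling lay within 1 SE of each other. For Zm00001d004730 it was -4.41 (SE 0.482) at 4S4R, -4.35 (SE 0.509) at 4S26R, -2.65 (SE 0.452) at 26S0R and -0.96 (SE 0.362) at 26S26R. For Zm00001d004744 it was 3.14 (SE 0.32) at 4S4R, -0.73 (SE 0.266) at 4S26R, -0.81 (SE 0.263) at 26S0R and -1.64 (SE 0.303) at 26S26R. These differences use separate libraries for each condition.

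**Figure D4:**
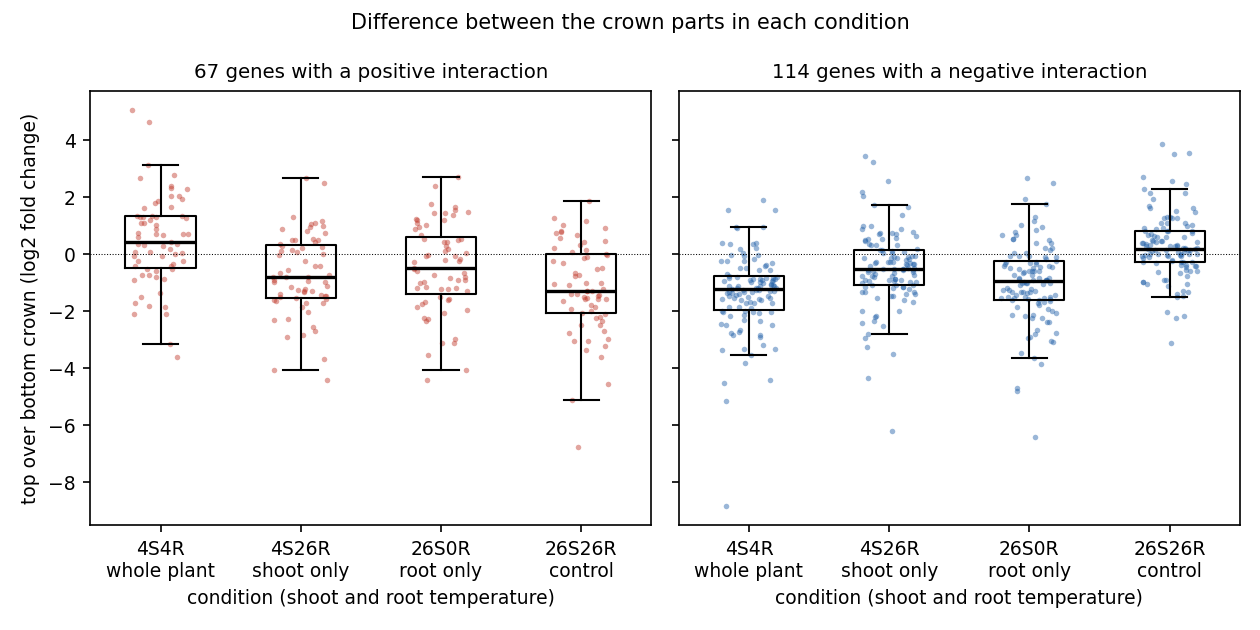
Top over bottom crown, as a log2 fold change from the fit of 24 libraries, in 4 conditions for the 67 genes of positive (left) and 114 of negative (right) interaction (points are genes, boxes the quartiles, whiskers to 1.5 times the box). The medians of 4S26R and 26S0R lie between those of 4S4R and 26S26R in both panels.

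Leaf and root libraries, also outside the choice of genes, showed what the same genes did in other chilled organs. In root, 107 of the 114 negative genes could be tested at 4S4R over 26S26R, 67 rose (62.6%) and 1 fell, with a median of 1.61. In leaf, 89 could be tested, 53 rose (59.6%) and 7 fell, with a median of 1.06. Over all genes, 11.4% rose in root and 15.7% in leaf. Genes called in the bottom crown without an interaction are a closer comparison, since any gene chosen for a crown response may respond elsewhere. Of 3347 such risen genes tested in root 34.9% rose, and of 3001 in leaf 43.9% rose. The 114 also hold 21 genes not called and 5 fallen in the bottom crown, and the size of the response was not matched.

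The gene that fell in root was Zm00001d031127, singled out after its values were seen. Its mean was 1.58 CPM in the 4S4R top crown and 8.69 CPM in the 26S26R top crown, and 18.3 CPM in the 4S4R bottom crown and 23.2 CPM in the 26S26R bottom crown. It fell in the top crown (-2.44, adjusted p = 6.26e-05) and in root (-3.72, adjusted p = 0.000189) and rose in leaf (2.81, adjusted p = 1.19e-06, edgeR), while the bottom crown was not called (-0.33, adjusted p = 0.294). The interaction of -2.10 (adjusted p = 0.0283) was lost without any 1 of 7 libraries (adjusted p from 0.0512 to 0.0979): 26S26R top replicate 3 and every replicate of the 26S26R bottom crown and of the 4S4R top crown.

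The positive genes were split in both organs. In root 14 of 60 tested rose and 16 fell (median -0.44), where 11.4% of all genes rose and 9.65% fell. In leaf 16 of 58 rose and 22 fell (median -0.40), where 15.7% rose and 14.3% fell. The classes were also followed in the organs. Of the 45 negative genes that rose in the bottom crown and were not called in the top crown, 34 of 44 tested rose in root and 23 of 38 in leaf. Of the 31 positive genes that fell in the bottom crown alone, 7 of 28 fell in root and 13 of 27 in leaf. These are near the shares of genes fallen in the bottom crown without an interaction, of which 31.4% fell in root and 43.2% in leaf. Genes that rose in both crown parts mostly rose in the organs whichever the sign: of the negative ones 16 of 19 rose in root and 18 of 18 in leaf, and of the positive ones 9 of 14 rose in root and 11 of 13 in leaf. Of genes risen in the top crown without an interaction, 29.1% rose in root and 39.4% in leaf. For those risen in the bottom crown the shares were 34.9% and 43.9%. Genes risen in both parts were not set apart in these shares, nor was the size of the rise matched.

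A leaf-minus-root difference of the chilling responses, computed after the crown values were seen, was compared with the top-minus-bottom one, since top and bottom could be taken as the ends nearer to leaf and to root. It was called for 1280 of 18554 genes (6.90%), 3.58% higher and 3.32% lower in leaf. Of the positive crown genes 64 could be tested and 17 were called (26.6%), 9 in the same direction as in the crown. Of the negative ones 110 could be tested and 29 were called (26.4%), 18 in the same direction. Across 174 crown genes the 2 differences had a Pearson's r of -0.01 and a Spearman's rho of 0.01, and across 16912 genes Spearman's rho was -0.02. The sign was the same for 101 of the 174 (58%) and for 48.5% of the 16912 genes. The points share no libraries but all share the 4 °C treatment.

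Gene lists taken from leaf and root were then followed in the crown. Each held genes called and changed at least 2-fold by 4S4R in that organ. Of 1618 genes raised in root, 783 rose and 76 fell in the top crown, with a median of 0.67, and 1127 rose and 43 fell in the bottom crown, with a median of 1.01. Of 1498 genes raised in leaf, 810 rose and 64 fell in the top crown (median 0.76), and 1051 rose and 41 fell in the bottom crown (median 1.02). For all genes tested, 16.3% rose in the top crown and 19.5% in the bottom crown. The lists hold 86 and 80 genes under 10 counts in every control library of the crown, which passed the filter through chilled libraries and could hardly be seen to fall.

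The interaction was called for 76 of the 1618 genes raised in root (4.70%), 64 of them negative, with a median over the list of -0.28. It was called for 60 of the 1498 raised in leaf (4.01%), 46 of them negative, with a median of -0.23. Over all genes the median was -0.07 and 0.960% were called. With DESeq2 size factors in edgeR the medians were -0.21, -0.17 and 0.00 for the root list, the leaf list and all genes. Both lists of raised genes thus had a lower median than all genes under either scaling.

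Many genes lowered in the organs also fell in the crown. Of 1255 genes lowered in root, 667 fell in the top crown (53.1%, median -0.86) and 793 in the bottom crown (63.2%, median -0.89). Of 1075 lowered in leaf, 539 fell in the top crown (50.1%, median -0.72) and 643 in the bottom crown (59.8%, median -0.79). Over all genes 18.6% fell in the top crown and 17.7% in the bottom crown. The interaction was called for 15 of the root list (1.2%), 14 of them positive, and for 19 of the leaf list (1.77%), 15 of them positive, beside 0.960% of all genes. The medians of the interaction were 0.04 for the root list, 0.03 for the leaf list and -0.07 for all genes.

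Genes enriched by organ had shares of calls close to those of all genes in the top crown. Of 660 root-enriched genes, 109 rose (16.5%) and 121 fell (18.3%) in the top crown, with a median of -0.01. In the bottom crown 173 rose (26.2%) and 122 fell (18.5%), with a median of 0.18. The sign of both medians turned with the scaling, to 0.05 in the top crown with DESeq2 size factors and to -0.07 in the bottom crown with library size alone. Of 1398 leaf-enriched genes, 186 rose (13.3%) and 271 fell (19.4%) in the top crown (median -0.09), and 201 rose (14.4%) and 306 fell (21.9%) in the bottom crown (median -0.09). Among all genes, 16.3% rose and 18.6% fell in the top crown, and 19.5% rose and 17.7% fell in the bottom crown. The interaction was called for 12 root-enriched genes (1.82%) and 20 leaf-enriched genes (1.43%), beside 0.960% of all genes.

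**Figure D5:**
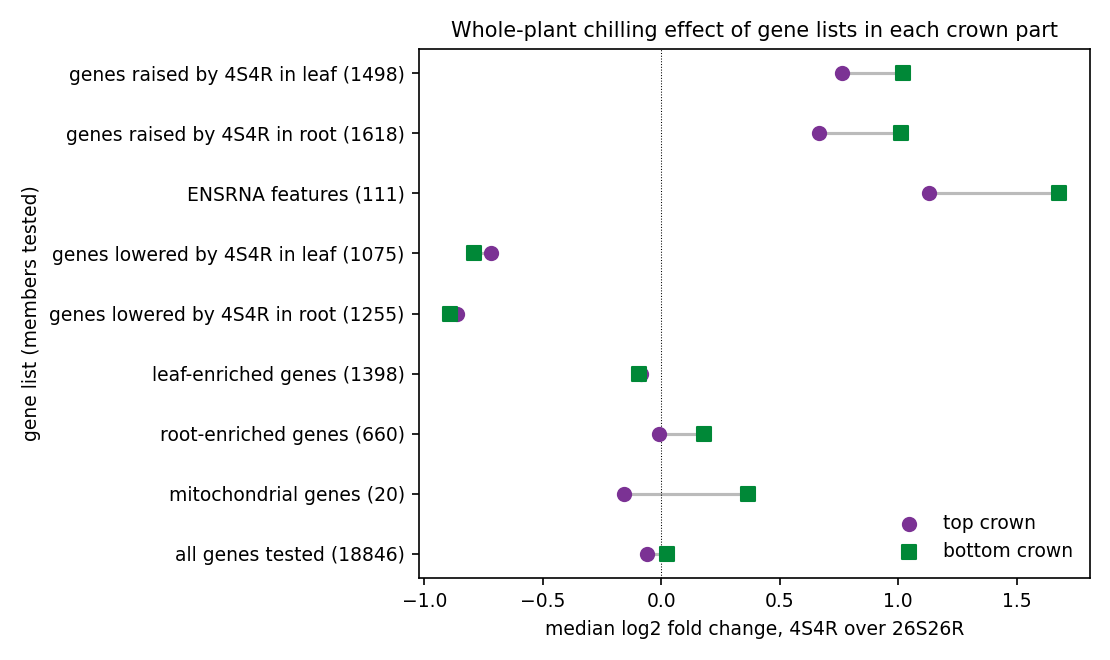
Median log2 fold change of 4S4R over 26S26R of each gene list in the top crown (purple circles) and the bottom crown (green squares), with the number of members tested. The lists of genes raised in leaf or root and the ENSRNA features lie further from 0 in the bottom crown than in the top crown, and the lists of lowered genes nearly coincide.

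ENSRNA features are the annotation's non-coding RNA entries, and these libraries, primed on poly(A) tails, show only the captured part of them. Of 111 tested, 54 rose (48.6%) and 8 fell (7.21%) in the top crown (median 1.13), and 69 rose (62.2%) and 6 fell (5.41%) in the bottom crown (median 1.68). The shares over all genes were 16.3% risen and 18.6% fallen in the top crown, and 19.5% risen and 17.7% fallen in the bottom crown. Of the 111, 24 had under 10 counts in every control library. The share of all counts held by all 1765 ENSRNA entries was 0.0916% to 0.14% in the 4S4R top crown and 0.0431% to 0.0511% in the 26S26R top crown. It was 0.152% to 0.194% in the 4S4R bottom crown and 0.0949% to 0.109% in the 26S26R bottom crown. Among the 111 tested, the median interaction was -0.32, against -0.07 over all genes. The interaction was called for 0.901% of the 111, near the 0.960% of all genes.

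One ENSRNA feature, ENSRNA049463846, was among the 181. It had 14, 22.5 and 8.78 CPM in the 4S4R top crown and 7.51, 7.15 and 9.42 CPM in the 26S26R top crown. In the bottom crown it had 65.3, 72.1 and 47.3 CPM at 4S4R and 8.94, 10.7 and 11.4 CPM at 26S26R. The groups overlapped in the top crown and not in the bottom crown. It rose in both parts, by 0.92 in the top crown (adjusted p = 0.0159) and 2.57 in the bottom crown (adjusted p = 5.87e-07), and the interaction was -1.65 (SE 0.373, adjusted p = 0.0436, edgeR). That call was lost without any 1 of 10 libraries, with adjusted p from 0.059 to 0.125; it held without 4S4R top replicate 2 and without 4S4R bottom replicate 3. It was also lost with 24 libraries in the fit (adjusted p = 0.0529) and with library size alone (0.0722).

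Organelle genomes encode part of the respiratory chain, the photosystems and the ribosomes of mitochondria and plastids. Most of their transcripts lack a stable poly(A) tail, and nuclear copies can share their reads, so levels here are uncertain. Of 20 mitochondrial genes tested, 17 had an interaction below 0 (median -0.60) and none was called by edgeR or DESeq2. At an unadjusted p of 0.05 there were 6, all negative. Over all 18846 features, 10621 lay below 0, and 2631 passed that unadjusted p, 1638 of them negative. The spread between libraries of a group was wide for these genes, and organelle counts made up 0.0821% to 0.346% of a library.

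The gene rps7 (ZeamMp159), for a protein of the small mitochondrial ribosome subunit, had 8.77, 11.9 and 8.14 CPM in the 4S4R top crown and 8.6, 10 and 9.76 CPM in the 26S26R top crown. Bottom crown libraries had 15.8, 15.9 and 12 CPM at 4S4R and 7.25, 7.3 and 6.28 CPM at 26S26R. The groups overlapped in the top crown and not in the bottom crown, where it rose by 1.07 (SE 0.205, adjusted p = 0.000471, edgeR). Its interaction of -1.04 (SE 0.294) was not called (adjusted p = 0.0993), so a difference between the parts was not shown.

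The other mitochondrial gene that rose in the bottom crown was rrn18 (ZeamMr004), for the small ribosomal RNA, at 115 ± 30.6 CPM in the 4S4R bottom crown and 63.3 ± 5.23 CPM in the 26S26R bottom crown (0.86, adjusted p = 0.00818, edgeR). That call was lost with library size alone (adjusted p = 0.0644) and with 24 libraries in the fit (0.0621). In the top crown orf101-a (ZeamMp044) and orf119-a (ZeamMp052), open reading frames, were called lower, at 11.8 ± 0.922 CPM and 3.29 ± 1.57 CPM at 4S4R against 18.9 ± 3.34 CPM and 6.73 ± 2.05 CPM at 26S26R (adjusted p = 0.0188 and 0.0465).

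The call of orf101-a was lost without 26S26R top replicate 2 (adjusted p = 0.138) or 4S4R top replicates 2 (0.0676) or 3 (0.0597), and with 24 libraries in the fit (0.0744). That of orf119-a was lost without 26S26R top replicates 2 (0.0671) or 3 (0.189), 4S4R top replicates 1 (0.158) or 3 (0.193) or 26S26R bottom replicate 3 (0.0576), and with DESeq2 (0.0532). None of the 4 plastid genes tested, ycf3, trnK, matK and atpF, was called in either part or for the interaction by edgeR or DESeq2. Their interactions ran from -1.53 for ycf3 (ZemaCp024) to 0.16 for atpF (ZemaCp019). None had an unadjusted p under 0.05 for the interaction, and 1 did in each part. With library size alone, 1 plastid gene was called lower in each part.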

How the data were processed

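Per the labels' protocols, 3′ libraries were made from total RNA with a QuantSeq forward kit, so a count is not length-scaled. STAR and edgeR are listed in the submitters' processing notes. For the build, the counting step, strand and molecular identifiers, the sources used here give nothing, so overlapping, antisense or near-identical genes are uncertain. The authors deposited raw counts per gene and library over 46430 identifiers, which were the input of every test; the deposited CPM tables were not used.

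The 12 libraries were fitted with edgeR 4.0.16 in R 4.3.3 (filterByExpr, TMM, robust quasi-likelihood fit of 4 group means, Benjamini-Hochberg adjustment at 0.05), with SE from the F value. The code was tested on simulated data. Leaf and root were fitted on 6 libraries each. Alternatives were DESeq2 1.42.0, other scalings, no filter, 24 libraries, a replicate block and leaving out each library. Replicates differed by more than sampling noise (chi-square per degree of freedom at least 3.73).

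The name table (assembly NAM-5.0) matched 0 of 44146 nuclear models, 0 of 1765 ENSRNA features, 153 of 154 microRNA loci (none tested) and all 208 mitochondrial and 157 plastid genes. Of the 32 lists by symbol, 1 therefore had tested members: mitochondrial rps genes in a list of cytosolic ribosomal proteins, where they do not belong. Hence identifiers were named by rule, at most 2 per sign and comparison: called, at least 10 CPM in a group, no overlap of conditions, largest change. Named exceptions are marked. Members and lists were chosen with earlier results of these data known.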

Additional observations from a re-analysis of the deposited data

Results flagged for a closer look

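The test of the difference itself, the interaction of crown part and chilling, separated the responses of the parts for 181 genes. By that test Zm00001d004744 (4.75) and Zm00001d046510 (2.59) responded more positively in the top crown, with opposite changes in the parts. Zm00001d002019 (3.61) also had a positive value, whose fitted size depended on a single count in the 26S26R top crown. Zm00001d004730 (-3.49) and Zm00001d047938 (-3.14) responded more positively in the bottom crown. Zm00001d041611 (-5.77) had the most negative value, whose fitted size depended on a single count in the 4S4R top crown. ENSRNA049463846 (-1.65) was the 1 non-coding feature. Zm00001d031127 (-2.10) fell in the top crown and in root.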

How the results depend on the processing

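The count of interaction genes was 181, and 349 with DESeq2, 351 with no filter on low counts, 180 with DESeq2 size factors, 152 with library size alone and 152 with 24 libraries in the fit. Leaving out 1 library gave 79 to 249 for the interaction, 5186 to 7237 for the top crown, 5556 to 7274 for the bottom crown, and 9937 to 11326 and 8726 to 10500 for the part difference at 4S4R and 26S26R. The cause of these changes was not tested. Other settings kept these last 4 counts within 1.5 times. With no filter 178 interactions were positive and 173 negative. No named gene changed sign under the alternatives run, which reuse most of the same libraries. Over the repeats of the 28 named calls 440 kept and 64 lost the call, and the losses were uneven. Leaving out 1 library ended the interaction call in 8 of 12 fits for Zm00001d002019 and for Zm00001d041611. It did so in 10 for ENSRNA049463846 and 7 for Zm00001d031127, and in none for Zm00001d004744, Zm00001d004730, Zm00001d046510 and Zm00001d047938.

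Deviations of same-numbered libraries of different groups were weakly correlated (-0.13 to 0.17, median 0.035). For libraries of different numbers the correlations ran from -0.251 to 0.224 (median -0.03). Yet 9 of 12 libraries correlated best with their own number, so a pairing was neither shown nor excluded. A replicate block gave 242 interaction genes, 76 positive and 166 negative. It ended the calls of Zm00001d002019 (adjusted p = 0.0505), Zm00001d051251 (0.11) and orf119-a (0.0618), and of no other named gene.

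With 3 libraries a group the median SE of an interaction was 0.323. For 163 of the 181 called genes the chilling fold changes of the parts differed by at least 2-fold. Genes with single counts in a group had wide intervals.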
